A study of Mus musculus with 30 samples.

Results

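Forkhead factors are transcription factors that bind DNA through a winged-helix domain. FOXF2, FOXC1 and FOXQ1 are known from the vasculature of the developing and adult brain. FOXF1 is the close relative of FOXF2 and acts in lung and gut vessels, and FOXP1 mainly represses its targets. FOXO1 and FOXO3 are switched by location: growth factor signaling through PI3K and AKT phosphorylates them and moves them out of the nucleus, so that their mRNA level is only part of their regulation. The 7 genes described here were chosen by name: Foxf1, Foxf2, Foxq1, Foxc1, Foxo1, Foxo3 and Foxp1, of 21820 genes with a protein-coding transcript and 54288 genes in all. All 7 were measured in the 14 RNA-seq libraries and all 7 passed the filter on low counts in each comparison.

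The series compared brain endothelial cells (ECs) of adult male mice in 4 groups. Acutely isolated ECs (2 RNA-seq libraries) were viable GFP-positive cells sorted from the brains of homozygous Tie2-GFP mice, in which the endothelial Tie2 promoter drives GFP. The GFP-negative cells of such sorts (2 libraries) are all other brain cells. By the paper, its adult brain EC data combine a cerebrum and a cerebellum data set, of which the cerebellum part was published earlier. WT cultures (6 libraries) and beta-catenin stabilized cultures (4 libraries) were puromycin-selected primary brain ECs kept in growth medium for 8 days. WT replicates 1 and 2 came from C57BL/6J mice by isolation method A, a papain digestion. Whether these mice had received 4-hydroxytamoxifen as pups is not clear. The wording of the paper's results section includes them, and that of its methods section can be read either way. By the paper's methods section, WT replicates 3 to 6 came by isolation method B, Dounce homogenization with collagenase. Their mice were Ctnnb1flex3/+;Tie2-GFP without Cre and had received the same 4-hydroxytamoxifen as pups. A figure legend of the paper differs. It gives method B only to the 2 WT RNA-seq libraries of another facility and method A to the other 4. The stabilized cultures were from Ctnnb1flex3/+;Pdgfb-CreER;Tie2-GFP mice given 4-hydroxytamoxifen as pups, in which endothelial Cre removes Ctnnb1 exon 3, with replicates 1 and 2 by method A and 3 and 4 by method B. Cells of several mice were pooled for each culture experiment, and culture replicates are wells, 2 per experiment. Each well was fitted as a separate library, so p-values mix the spread between wells and experiments and can understate that between experiments. WT replicates 3 and 4 were sequenced with longer reads at another facility. Acutely isolated libraries had single-end reads of 75 cycles and cultures paired-end reads, mostly of 36 cycles, so read type and culture cannot be told apart. ATAC-seq peaks, which mark open chromatin, came from acutely isolated ECs (2 libraries), WT cultures (6) and method B stabilized cultures (2).

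Total counts ranged from 24284843 to 94686456 per RNA-seq library. The summed level of 12 EC markers was 4089 to 4846 TPM (the length-corrected share of all transcripts that Salmon reports) in acutely isolated ECs, 106 to 116 in GFP-negative cells, 2357 to 5871 in WT cultures and 2577 to 7617 in stabilized cultures. Acutely isolated ECs also held pericyte RNA. The sum of 10 pericyte markers was 562 to 598 TPM there, 415 to 817 in GFP-negative cells, and 4.77 to 11.0 and 6.70 to 21.9 in WT and stabilized cultures. In bulk RNA, fewer cells of a type and less RNA per cell cannot be told apart. Smooth muscle markers (6 genes) went from 216 to 236 TPM in acutely isolated ECs to 504 to 3078 in WT cultures, a sum carried by Acta2 and Tagln. Acta2, Tagln and Cnn1 were called higher, Myh11 was called lower (19.7 to 25.0 TPM against 0.502 to 3.11), and Des and Actg2 were not called. The long-read experiment also stood apart. Of 9721 genes with a mean of at least 1 TPM in each WT experiment, 77.1% were highest in it, and the median gene differed 2.91-fold between its highest and lowest WT experiment.

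Foxq1, Foxf2 and Foxc1 lie in this order on the plus strand of chromosome 13 (GRCm38, GENCODE M21), at chr13:31556134-31560976, chr13:31625816-31631403 and chr13:31806633-31812476. Foxq1 and Foxc1 have 1 exon in their coding transcript and Foxf2 has 2. Foxf1 (chr8:121084386-121088144, plus strand) also has 2 exons. Foxo1 (chr3:52268336-52353221, plus), Foxo3 (chr10:42181841-42276755, minus) and Foxp1 (chr6:98925338-99522721, minus) are long genes. Levels are given in TPM, which corrects for transcript length. Differences are log2 fold changes of normalized read counts, tested in edgeR by quasi-likelihood. To be called, a gene needed an adjusted p (Benjamini-Hochberg) below 0.05, a change past 2-fold, and 5 TPM or more in all libraries of the group where it was higher.

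**Figure D1:**
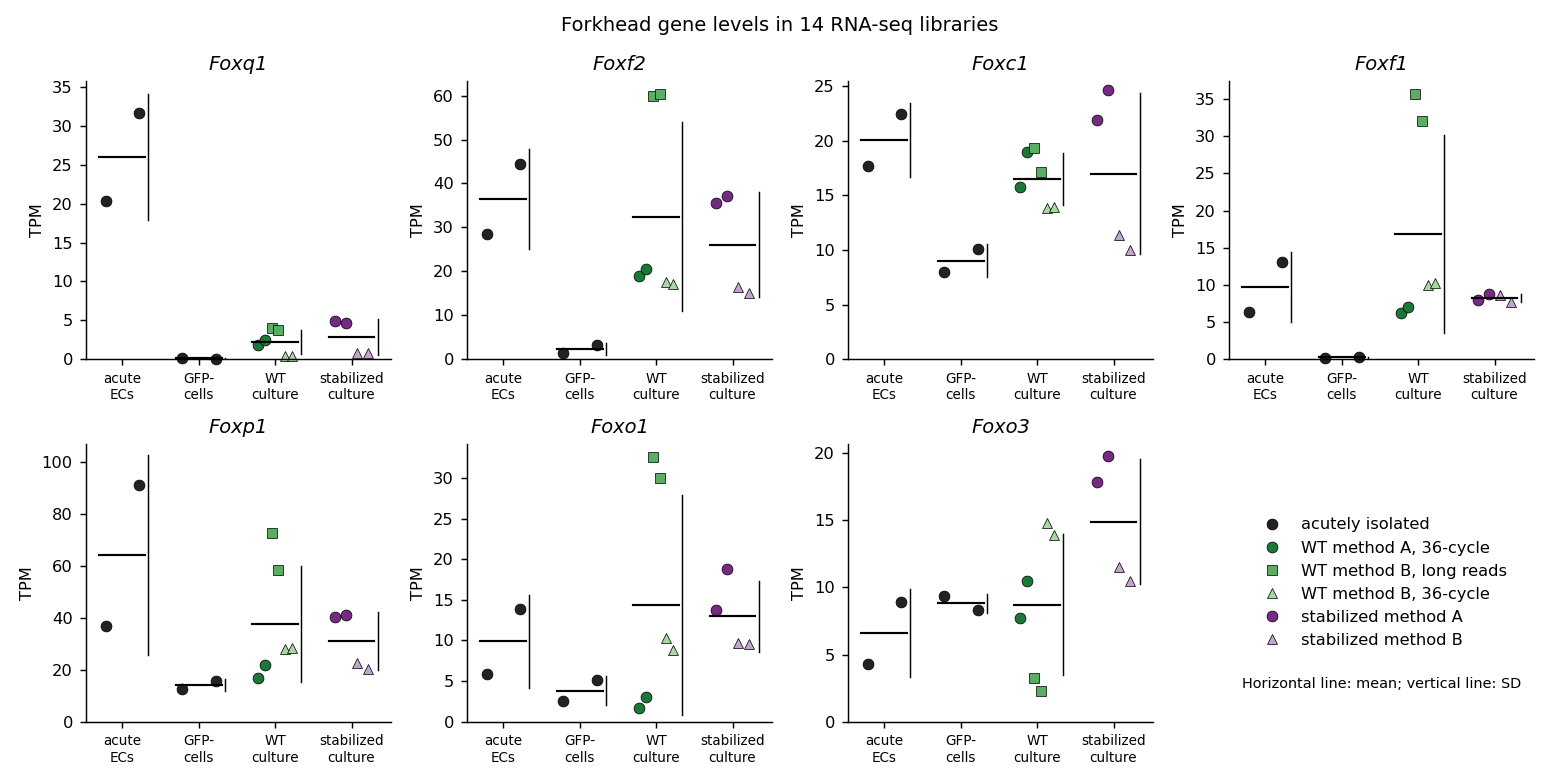
TPM (vertical axis) of each forkhead gene in the 14 RNA-seq libraries, by group, with the mean as a horizontal line and the SD as a vertical line. Foxq1 was at 20.3 and 31.7 in acutely isolated ECs and at most 4.93 in any culture, and the WT long-read wells (squares) were the highest WT wells for Foxq1, Foxf1, Foxf2, Foxo1 and Foxp1 and the lowest for Foxo3.

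In acutely isolated ECs the order of the means was Foxp1 (64.2 ± 38.4 TPM, SD, n = 2), Foxf2 (36.5 ± 11.3), Foxq1 (26.0 ± 8.08), Foxc1 (20.1 ± 3.38), Foxo1 (9.88 ± 5.71), Foxf1 (9.71 ± 4.68) and Foxo3 (6.62 ± 3.29). Of neighbors in this order, only Foxc1 and Foxo1 had ranges that were apart. In WT cultures Foxq1 was the lowest of the 7 at 2.13 ± 1.55 TPM (n = 6), and every pair of neighbors overlapped. In stabilized cultures Foxq1 was again lowest at 2.79 ± 2.33 TPM (n = 4), and there the ranges were apart between Foxo1 and Foxf1 and between Foxf1 and Foxq1. In GFP-negative cells Foxp1 led with 14.1 ± 2.19 TPM, followed by Foxc1 and Foxo3.

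The comparison of acutely isolated ECs with the GFP-negative cells asked which of the genes are enriched in endothelium. Foxq1, Foxf1, Foxf2, Foxp1, Foxo1 and Foxc1 were called higher in ECs, 6 of the 7, where 8.3% of 15102 genes tested were called higher. Foxq1 was at 20.3 and 31.7 TPM in ECs and at 0.127 and 0.0421 in GFP-negative cells, with a log2 change of 8.57 ± 0.80 (± SE here and below, adjusted p = 0.00195). Foxf1 was at 6.40 and 13.0 TPM against 0.173 and 0.289, a log2 change of 5.40 ± 0.62 (adjusted p = 0.00300). Foxf2 was at 28.4 and 44.5 TPM against 1.34 and 3.30, a log2 change of 4.45 ± 0.52 (adjusted p = 0.00313). In these 3 genes the lowest EC library was many times the highest GFP-negative library.

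Foxp1 was at 37.0 and 91.4 TPM in ECs against 12.6 and 15.7, a log2 change of 2.23 ± 0.35. Foxc1, at 17.7 and 22.5 TPM against 7.96 and 10.1, had a log2 change of 1.56 ± 0.31 (adjusted p = 0.0143). Foxo1, at 5.84 and 13.9 TPM against 2.56 and 5.10, had one of 1.65 ± 0.38 (adjusted p = 0.0238). Their ranges also did not overlap, as for 20.1% of all genes in this direction. The calls of Foxc1 and Foxo1 were lost without either GFP-negative library, with adjusted p of 0.0797 and 0.0965 for Foxc1 and of 0.142 and 0.0552 for Foxo1, and that of Foxo1 also without acute EC replicate 2 (0.0617). With an offset for transcript length they were lost too (0.0845 and 0.0828). Foxo3 was at 4.29 and 8.94 TPM in ECs and at 9.34 and 8.34 in GFP-negative cells, with a log2 change of -0.60 (95% interval -1.47 to 0.26, adjusted p = 0.257).

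**Figure D2:**
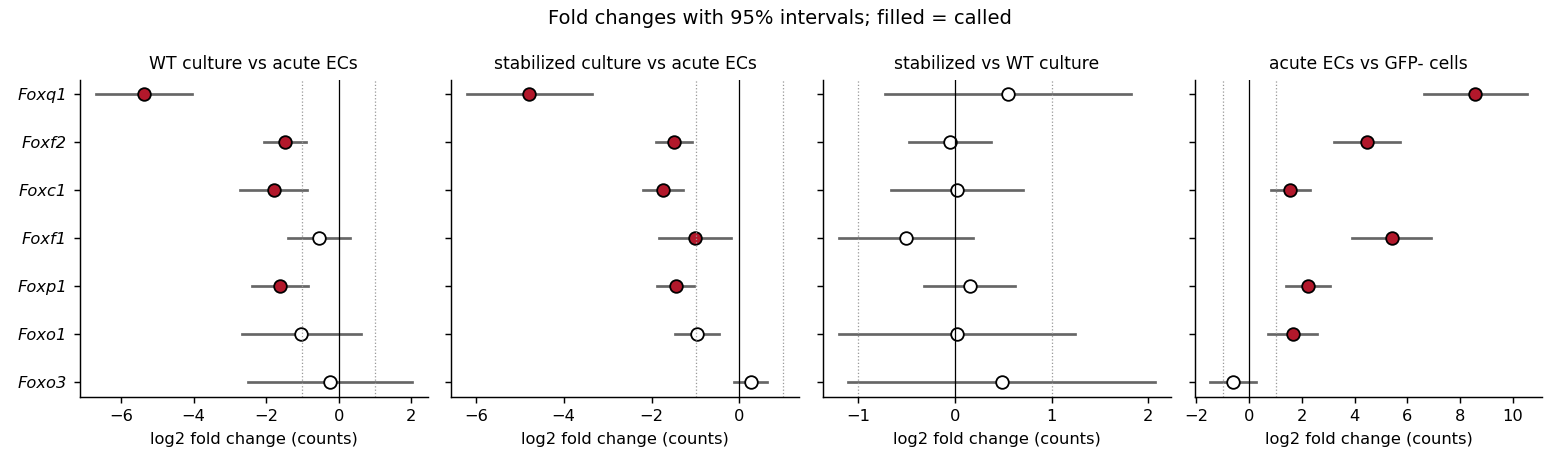
Log2 fold changes of counts (horizontal axes, points) with 95% intervals (bars) of the 7 genes in the 4 comparisons. Filled points were called and dotted lines mark a 2-fold change. Foxq1 was lower in both kinds of culture (-5.37 and -4.78), and no gene was called between stabilized and WT cultures.

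Next, WT cultures were compared with acutely isolated ECs. Foxq1, Foxc1, Foxp1 and Foxf2 were called lower in culture, 4 of the 7, and none was called higher, where 10.2% of 13786 genes tested were called lower and 13.5% higher. The median log2 fold change of the 7 was -1.48, beside 0.10 over all genes tested. Foxf1, Foxo1 and Foxo3 were not called.

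Foxq1 had the largest change of the 7. It fell from 20.3 and 31.7 TPM in acutely isolated ECs to 1.82 and 2.48 TPM in the method A wells, 3.95 and 3.73 in the long-read wells and 0.399 and 0.423 in the other method B wells. All 6 WT wells were far below both acutely isolated libraries. The log2 fold change was -5.37 ± 0.59 (adjusted p = 0.000281), which is 41.3-fold lower on normalized counts, and the call held in all 21 alternatives, with log2 values between -5.92 and -4.40. Foxq1 was the only one of the 7 whose TPM did not overlap between these groups, as for 16.3% of all genes in this direction. The gene A530084C06Rik overlaps Foxq1 on the other strand, and Salmon was set to infer the library type itself, with the inferred type not given in the sources used here. Its counts were 720 and 862 in the acutely isolated libraries, beside 16594 and 14048 for Foxq1, and 0 to 46 in the WT cultures.

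Foxf2 and Foxc1 were called lower on counts, and their TPM overlapped. Foxf2 was at 28.4 and 44.5 TPM in acutely isolated ECs. In WT cultures it was at 18.8 and 20.6 TPM (method A), 59.9 and 60.4 (long reads) and 17.5 and 17.1 (method B), with a log2 change of -1.48 ± 0.26 (adjusted p = 0.00220). The 4 wells with 36-cycle reads were below both acutely isolated libraries and the long-read wells above them. Foxc1 was at 17.7 and 22.5 TPM and in culture at 15.8, 19.0, 19.4, 17.2, 13.8 and 13.98 TPM, with a log2 change of -1.79 ± 0.41 (adjusted p = 0.00762). Both calls were lost with an offset for transcript length, at log2 changes of -0.96 for Foxf2 (adjusted p = 0.0234, under the 2-fold limit) and -0.83 for Foxc1 (adjusted p = 0.0896). The effective length of Foxf2 was 1098 to 1172 bases in acutely isolated and 1433 to 1774 in WT culture libraries. Both genes are also known from pericytes. Of 10 pericyte markers, 8 were called lower in WT cultures, and their part in these changes was not tested. The GFP-negative cells, whose pericyte marker sum spanned that of the ECs, held 1.34 and 3.30 TPM of Foxf2 and 7.96 and 10.1 of Foxc1.

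Foxp1 was at 37.0 and 91.4 TPM in acutely isolated ECs and at 16.8, 21.8, 72.6, 58.6, 27.9 and 28.5 TPM in WT cultures, with a log2 change of -1.62 ± 0.34 (adjusted p = 0.00502). The 36-cycle wells lay below both acutely isolated libraries and the long-read wells between them. With the wells of each experiment summed, the change was -1.54 and the call was lost (adjusted p = 0.0512). The annotation has many Foxp1 transcripts, and their estimates differed with the reads. A transcript of 1848 bases made up 55.3% and 58.8% of Foxp1 TPM in the long-read wells and at most 7.97% in the other WT wells. In acute EC replicate 2, 30.8 TPM were assigned to a transcript of 341 bases, and none in replicate 1. Without transcripts under 500 bases, Foxp1 was at 34.8 and 56.9 TPM in acutely isolated ECs and at 70.8 and 57.7 in the long-read wells, which then lay above both, while the 36-cycle WT wells (16.2 to 27.9) stayed below both.

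Foxf1 showed no call, with 6.40 and 13.0 TPM in acutely isolated ECs and 6.15, 7.07, 35.7, 32.1, 9.91 and 10.2 TPM in WT cultures (log2 change -0.55, 95% interval -1.40 to 0.31, adjusted p = 0.265). With cultures of method A only it was called lower, at -1.28 (adjusted p = 0.0240), and with the length offset the change was -0.01 (adjusted p = 0.982). Its mean TPM was higher in WT cultures (16.9 ± 13.3 against 9.71 ± 4.68), so no direction is given for Foxf1. Foxo1 was at 5.84 and 13.9 TPM in acutely isolated ECs. In culture it was at 1.68 and 2.999 TPM in the method A wells, 32.6 and 29.9 in the long-read wells and 10.3 and 8.81 in the other method B wells, the widest spread between WT experiments of the 7 (13.4-fold between means). Its log2 change was -1.03 (95% interval -2.68 to 0.61, adjusted p = 0.271), and with method A cultures only it was -3.10 and called (adjusted p = 0.00441). Over the alternatives it ranged from -3.10 to -0.31. Mean TPM of Foxo1 was higher in WT cultures (14.4 ± 13.5 against 9.88 ± 5.71), so no direction is given for Foxo1 either. Foxo3 was at 4.29 and 8.94 TPM and in culture at 7.70, 10.51, 3.24, 2.26, 14.8 and 13.9 TPM. Here the long-read wells were the lowest, opposite to Foxo1, and the log2 change was -0.24 (95% interval -2.49 to 2.01, adjusted p = 0.861). It turned to 0.30 with 36-cycle cultures only, so no direction is given for Foxo3.

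Stabilized cultures were also compared with acutely isolated ECs, the same 2 libraries as above. Foxq1, Foxc1, Foxf2, Foxp1 and Foxf1 were called lower, 5 of the 7, where 11% of 13891 genes were. Foxq1 was at 4.93 and 4.66 TPM (method A) and 0.740 and 0.809 TPM (method B), a log2 change of -4.78 ± 0.59 (adjusted p = 0.000971), and all 4 wells were below both acutely isolated libraries, as for 17.7% of all genes in this direction. The log2 changes were -1.74 ± 0.19 for Foxc1, -1.49 ± 0.18 for Foxf2 and -1.45 ± 0.18 for Foxp1, and the call of Foxc1 was lost with the length offset (-0.90). Foxf1 stood at the limit, at -1.01 ± 0.34 (adjusted p = 0.0409), and was lost in 11 of 18 alternatives, among them leaving out acute EC replicate 2 (-0.73) or stabilized replicate 1 (-0.88), 2 (-0.87) or 4 (-1.12, adjusted p = 0.0552). Foxo1 had a log2 change of -0.97 ± 0.21 (adjusted p = 0.00783), just under the 2-fold limit, and was called in 6 of 18 alternatives, among them without acute EC replicate 1 (-1.23) or stabilized replicate 4 (-1.003). With the length offset it was -0.12, and mean TPM of Foxo1 was higher in stabilized cultures (12.9 ± 4.39 against 9.88 ± 5.71). For Foxo3 the change was 0.26 (95% interval -0.12 to 0.63). Its 4 wells (17.8, 19.8, 11.5 and 10.49 TPM) lay above both acutely isolated libraries, as for 38.7% of genes in that direction.

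The comparison of stabilized with WT cultures asked whether constitutive beta-catenin alters these genes in culture. None of the 7 was called. Foxq1 could not have been called higher, since it was at most 4.93 TPM in stabilized wells, under the minimum of 5 TPM. Its adjusted p in edgeR was 0.726. Across 12959 genes none was called by edgeR either (0% in each direction). At an unadjusted p under 0.05, 561 genes were higher and 860 lower, none of them one of the 7, and DESeq2 called 15 higher and 3 lower. The log2 changes were 0.55 for Foxq1 (95% interval -0.72 to 1.82), 0.48 for Foxo3 (-1.10 to 2.07), 0.15 for Foxp1 (-0.32 to 0.62), 0.02 for Foxo1 (-1.200 to 1.247), 0.02 for Foxc1 (-0.66 to 0.70), -0.05 for Foxf2 (-0.47 to 0.38) and -0.51 for Foxf1 (-1.19 to 0.18). These intervals leave room for changes of more than 2-fold in Foxq1, Foxo3, Foxo1 and Foxf1. Of the 7 listed beta-catenin target genes none was called, with a median log2 change of 1.07. Axin2, the feedback inhibitor of the pathway, had the largest of these, at 3.29 (adjusted p = 0.210). It was low in both, at 0.0998 to 0.269 TPM in WT and 0.974 to 1.86 TPM in stabilized cultures. Acutely isolated ECs held 47.0 and 51.8 TPM of Axin2. It too was under the TPM minimum for a call of higher.

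Within each isolation method the stabilized and WT wells could be compared on 36-cycle libraries, 2 against 2. The method B WT wells here were replicates 5 and 6, for which the paper's methods section and figure legend name different methods. The difference between methods passed an adjusted p of 0.05 for 5 of the 7, but also for 51.7% of 12922 genes. Within a method, the WT wells came from a single culture experiment and the stabilized wells from another. The p-values here thus measure the spread between wells only, and stabilization and experiment cannot be told apart. The method A WT cells were of another genotype than those of method B, so method, genotype and experiment cannot be told apart. Foxo1 had the largest difference of the 7. By method A it was at 1.68 and 2.999 TPM in WT and 13.7 and 18.8 in stabilized wells, a log2 change of 2.02 ± 0.16, and by method B at 10.3 and 8.81 against 9.68 and 9.53 TPM, a log2 change of 0.11 ± 0.09. Method A stabilized wells were above all 36-cycle WT wells, while the method B wells overlapped. For Foxq1 the change was 0.47 ± 0.12 by method A (1.82 and 2.48 to 4.93 and 4.66 TPM) and 1.05 ± 0.14 by method B (0.399 and 0.423 to 0.740 and 0.809 TPM). Stabilized wells were higher in both methods, and the highest of them stayed below the lowest acutely isolated library. Foxp1 was higher by method A (0.41 ± 0.08) and lower by method B (-0.30 ± 0.06), as was Foxo3 (0.29 ± 0.07 and -0.27 ± 0.07). Foxf2 had 0.35 ± 0.08 by method A and 0.00045 ± 0.07 by method B. Foxc1 (-0.29 and -0.24) and Foxf1 (-0.26 and -0.18) did not pass the test of the difference between methods. These changes are on normalized counts, which place the typical gene near 0. On TPM the median of 9760 genes was itself 0.71 log2 units between stabilized and WT wells by method A and -0.13 by method B. The direction by method A therefore depends on the scale for Foxc1 (0.42 on TPM, WT wells at 15.8 and 19.0 against 21.9 and 24.6) and Foxf1 (0.34 on TPM, 6.15 and 7.07 against 7.97 and 8.74), whose TPM did not overlap. The log2 ratio of mean TPM for Foxq1 was 1.16 by method A and 0.91 by method B, so its difference between methods, -0.57 on counts, was 0.24 on TPM beside a median of 0.82 over all genes.

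**Figure D3:**
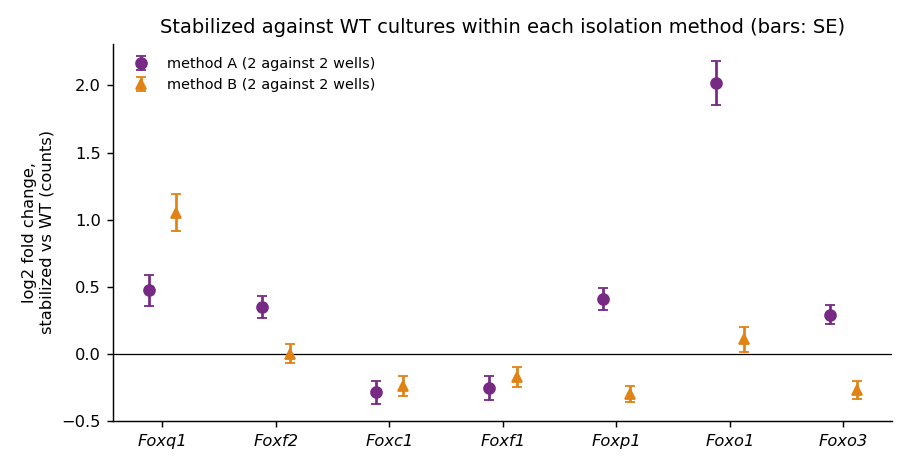
Log2 fold change of counts between stabilized and WT cultures (vertical axis) for the 7 genes within isolation method A (circles) and B (triangles), 2 wells against 2 in 36-cycle libraries, with the SE as bars. Foxo1 was at 2.02 by method A and 0.11 by method B.

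Of the 37 other forkhead genes, 18 were tested between WT cultures and acutely isolated ECs. Foxn3, Foxl2, Foxk1 and Foxj2 were called lower and none higher, where 10.2% of all genes were called lower and 13.5% higher. The median log2 change of the 18 was 0.24, beside 0.10 over all genes. Foxn3, a repressor linked to the cell cycle, went from 33.9 to 38.1 TPM down to 4.66 to 27.7 (log2 change -2.90 ± 0.39). Foxl2, best known from the ovary, was also enriched in ECs, with 5.05 to 9.01 TPM against at most 0.0299 (called higher). In WT cultures it spanned 0.490 to 14.6 TPM, so its range overlapped although its counts fell (-2.91 ± 0.70). Foxk1 fell from 5.73 to 6.15 TPM down to 1.05 to 4.63, and Foxj2 overlapped. In stabilized cultures Foxl2, Foxn3, Foxj2, Foxo4 and Foxk1 were called lower than in acutely isolated ECs and Foxk2 higher, of 19 tested. Of all genes, 11% were called lower and 15.1% higher. Foxk2 was at 1.89 to 5.23 TPM in acutely isolated ECs and 14.03 to 21.5 in stabilized cultures (log2 change 1.01 ± 0.32).

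Foxj1, the regulator of motile cilia, was called lower in ECs (0.0655 and 0.390 TPM) than in GFP-negative cells (6.58 and 10.4). Foxo4 was at 5.86 to 8.86 TPM in acutely isolated ECs and 0.102 to 3.30 in WT cultures, and was not called between these groups. Its ranges did not overlap, as for 16.3% of all genes in this direction. Foxp2 was at 2.30 to 17.8 TPM in GFP-negative cells, 1.13 to 6.40 in acutely isolated ECs and at most 0.823 in cultures. Foxj3 and Foxn2 reached a group mean of at least 5 TPM without a call in any comparison.

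FOXO activity is set by kinases and cofactors, so a list of 27 regulators was described beside Foxo1 and Foxo3. Between WT cultures and acutely isolated ECs 2 were called higher and 5 lower, where 13.5% of all genes were called higher and 10.2% lower. The median log2 change of the regulators was -0.18, beside 0.10 over all genes. Igf1r, the receptor of insulin-like growth factor, went from 134 to 147 TPM down to 9.25 to 36.2 (log2 change -3.86 ± 0.71). The acetyltransferases Ep300 (-3.45 ± 0.52) and Crebbp (-2.64 ± 0.53) fell as well. Crebbp was at 33.3 and 103 TPM in acutely isolated ECs and 2.25 to 9.84 in WT cultures. Sgk1, a kinase that phosphorylates FOXO proteins, rose from 65.2 to 101 TPM up to 381 to 599 (2.57 ± 0.36). Akt1 was also called higher (1.71 ± 0.37). In ECs against GFP-negative cells, 3 of 26 regulators tested were called higher (8.3% of all genes were), among them Igf1r (3.76 ± 0.36) and Insr (2.60 ± 0.36). The 2 called lower (7.56% of all genes were) were Irs2 (-4.92 ± 0.47) and Irs1 (-4.60 ± 0.63). In stabilized cultures 3 were called higher and 7 lower than in acutely isolated ECs (15.1% and 11% of all genes were), led by Igf1r (-3.45 ± 0.24).

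Of 25 genes listed as FOXO targets, 23 were tested and 5 were called higher and 6 lower in WT cultures than in acutely isolated ECs. Of all genes, 13.5% were called higher and 10.2% lower. The median log2 change of the targets was -0.47, beside 0.10 over all genes. Angpt2, a vessel-destabilizing ligand of Tie2, rose from 12.6 to 24.1 TPM up to 350 to 1152 (5.28 ± 0.62), and Cited2 from 3.95 to 11.3 up to 22.01 to 222.5 (3.98 ± 1.03). Klf4, a shear-responsive factor, fell from 89.7 to 142 TPM down to 2.17 to 8.42 (-6.09 ± 0.68), and Tnfsf10, which encodes the death ligand TRAIL, from 19.6 to 30.7 down to 0.152 to 1.75 (-5.98 ± 0.72). Targets were thus called in both directions, and Foxo1 and Foxo3 were not called. In ECs against GFP-negative cells 7 were called higher (8.3% of all genes were) and 2 lower (7.56%). The higher ones were led by Tnfsf10 (6.95 ± 0.57), Klf2 (4.31 ± 0.41) and Klf4 (4.00 ± 0.49). Stabilized cultures had 6 called higher and 7 lower than acutely isolated ECs (15.1% and 11% of all genes were). These were led by Angpt2 (6.31 ± 0.66), Tnfsf10 (-6.26 ± 0.39) and Klf4 (-5.65 ± 0.68). No regulator or target was called between stabilized and WT cultures.

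The genes whose pattern was most like each member were found by the root mean square difference of log2(TPM + 1), centered per gene, over the 14 libraries. For Foxq1 these were Sp100 (0.22 log2 units, beside Foxq1's own spread of 1.46), Rassf9 and Tshz2. For Foxf2 they were Scarb1 (0.26), Bin3 and Def6, for Foxf1 Utp4 (0.35), Thbd and Pwwp2b, and for Foxc1 Ahsa2 (0.18), Etfdh and Brap. Foxo1 was nearest to Mapk14 (0.28), Ints9 and Syngr2, Foxo3 to Klhl11 (0.18), Ipo7 and Taok1, and Foxp1 to Ccdc85a (0.25), Rnf114 and Ezh1. Among the 7, Foxf1 and Foxf2 were each other's nearest (0.50), as were Foxc1 and Foxp1 (0.54). These libraries share read types and experiments, so the measures are descriptions.

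In the ATAC-seq peaks, fold enrichment is the height of a peak over its local background. Peaks past a fold enrichment of 2 and a -log10 q of 2 numbered 31779 and 37384 in acutely isolated ECs, 33122 to 98732 in WT cultures and 79116 to 80034 in stabilized cultures, with medians of 6.12 to 7.47. For 6 of the 7 genes a peak lay within 1 kb of a GENCODE start in both acutely isolated and all 6 WT libraries, as for 51.0% of genes. Foxq1 had none there, since its GENCODE start lies upstream of its RefSeq start (chr13, position 31558170), which a peak at chr13:31557763-31558717 covered in all 10 libraries.

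**Figure D4:**
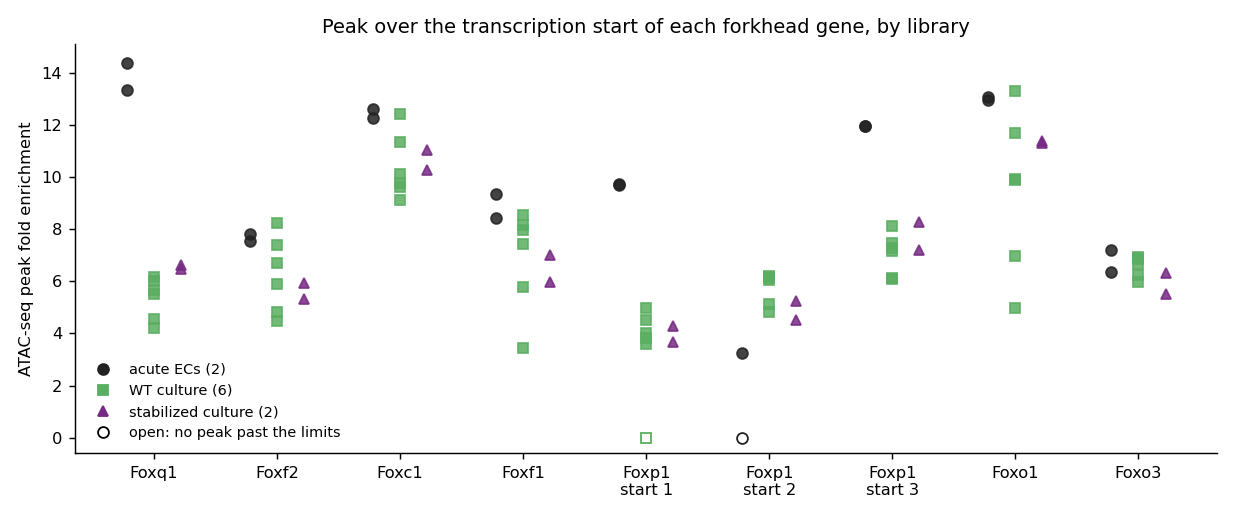
Fold enrichment (vertical axis) of the peak over the start of each forkhead gene in each ATAC-seq library, with RefSeq starts for Foxq1 and Foxf1 and 3 starts of the promoter table for Foxp1, numbered in the direction of transcription. Open symbols at 0 are libraries without a peak. The Foxq1 peak was at 14.4 and 13.3 in acutely isolated ECs and at 4.20 to 6.63 in cultures.

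The peak over the Foxq1 start had a fold enrichment of 14.4 and 13.3 in acutely isolated ECs. In WT cultures it was at 4.20, 4.55, 6.18, 6.01, 5.68 and 5.53, and in stabilized cultures at 6.46 and 6.63. The acutely isolated libraries were above both stabilized and all 6 WT cultures. They were above all 6 WT libraries at 11.5% of the 16954 regions shared by both acutely isolated and all WT libraries. Start peaks of Foxf2 (7.82 and 7.56 against 4.48 to 8.23), Foxo1 (13.0 and 13.1 against 4.98 to 13.3), Foxo3 (7.21 and 6.34 against 5.96 to 6.95) and Foxc1 (12.6 and 12.3 against 9.12 to 12.4) overlapped between acutely isolated ECs and WT cultures. At Foxf1 the acutely isolated values were 9.33 and 8.43 against 3.45 to 8.55.

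Foxp1 has many annotated starts. At the RefSeq start farthest 5′ (chr6, position 99522746), the peak was at 4.16 and 3.86 in acutely isolated ECs and 5.36 to 8.31 in WT cultures, with none in WT replicate 2. The promoter table held 3 further starts, and their peaks did not move together. The first of these (fold enrichment 9.72 and 9.71 in acutely isolated ECs, 3.596 to 4.96 in 5 WT libraries and no peak in WT replicate 1) and the third (12.0 and 11.9 against 6.10 to 8.12) were higher in acutely isolated ECs. The second was lower, at 3.26 in 1 acutely isolated library and no peak in the other, against 4.82 to 6.19. The promoters of the first 2 starts are printed because they differ in direction and in base composition. They run from 250 bases before to 50 after the start (RefSeq, GRCm38.p6, minus strand, 5′ to 3′), with CG in capitals. The first holds 13 CG and the second 5, beside a median of 7 over 32851 promoters.
Foxp1 first start, chr6:99520944-99521243: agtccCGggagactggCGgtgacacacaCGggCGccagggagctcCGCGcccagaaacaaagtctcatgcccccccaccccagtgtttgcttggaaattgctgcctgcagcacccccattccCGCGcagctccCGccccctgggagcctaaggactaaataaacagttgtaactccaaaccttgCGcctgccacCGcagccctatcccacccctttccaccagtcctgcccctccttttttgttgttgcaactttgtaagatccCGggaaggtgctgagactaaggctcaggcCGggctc
Foxp1 second start, chr6:99266466-99266765: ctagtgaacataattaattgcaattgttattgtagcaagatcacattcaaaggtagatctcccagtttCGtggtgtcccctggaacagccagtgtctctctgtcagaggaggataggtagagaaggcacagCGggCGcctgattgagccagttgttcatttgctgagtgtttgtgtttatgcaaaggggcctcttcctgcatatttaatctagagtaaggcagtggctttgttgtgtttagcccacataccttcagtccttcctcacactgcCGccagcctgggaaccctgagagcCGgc

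Promoters of 5 of the 7 genes were in the table (7 entries). None of the 7 held the forkhead motif TGTTTAC, the AP-1 motif TGANTCA or the TCF/LEF motif CTTTGAT on either strand, found in 3.65%, 7.81% and 3.73% of all promoters.

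Within 100 kb of the 7 genes lay 253 distinct peak regions. Regions open in both acutely isolated and no WT library numbered 4 (1.58%, beside 2.93% of all 126224 regions), and those open in all WT and no acutely isolated library 26 (10.3%, beside 8.09%). All 4 of the first kind were at Foxp1, a long gene with 121 of the 253 regions, of which they were 3.31%. Fold enrichment was higher in both acutely isolated libraries than in any WT library at 23 regions (9.09%, beside 6.31%) and lower at 40 (15.8%, beside 12.0%), a region without a peak counting as 0.

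**Figure D5:**
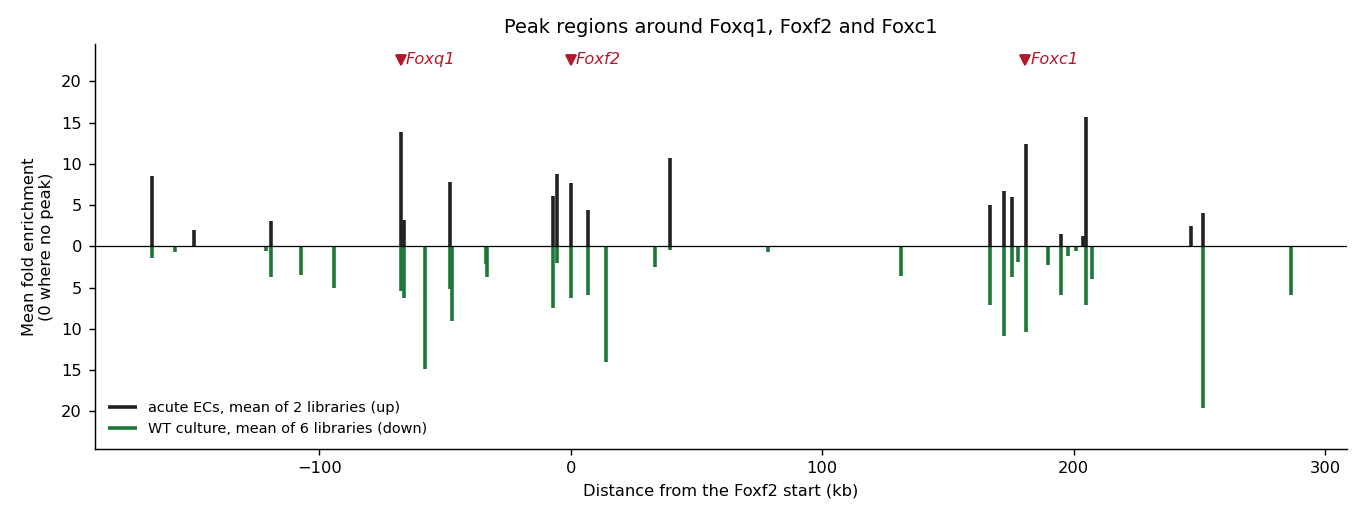
Mean fold enrichment (vertical axis, 0 where a library had no peak) of peak regions around Foxq1, Foxf2 and Foxc1 by distance from the Foxf2 start, in acutely isolated ECs upward and WT cultures downward. Regions between and beyond the genes differed in both directions.

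In the cluster of Foxq1, Foxf2 and Foxc1, a region 39450 bases past the Foxf2 start (chr13:31664960-31665572) was at 12.9 and 8.48 in acutely isolated ECs and had a peak of 2.93 in 1 of 6 WT and in no stabilized library. Another, upstream of the Foxf2 start (chr13:31619646-31620740), was at 9.28 and 8.30 against at most 3.44 in 4 WT cultures. It had no peak in the 2 of method A, which had the fewest peaks of the WT libraries (50395 and 33122). In the other direction, a region 11649 bases past the GENCODE start of Foxq1 (chr13:31567490-31568076) had no peak in acutely isolated ECs and 8.88 to 22.6 in WT and 17.4 and 15.9 in stabilized cultures. A region 13851 bases past the Foxf2 start (chr13:31639381-31639953) likewise had none in acutely isolated ECs and 6.92 to 20.8 in WT cultures. At 70645 bases past the Foxc1 start (chr13:31876976-31877581) the values were 5.03 and 3.15 in acutely isolated ECs against 15.2 to 24.5 in WT cultures. At 23942 bases past it (chr13:31830177-31830973), in an intron of Gmds, they were 15.98 and 15.3 against 4.46 to 11.6.

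Windows of 300 bases around the summit of the strongest peak are printed for 4 regions that differed between the groups and held a motif, in plus-strand sequence of GRCm38, with AP-1 (TGANTCA), TCF/LEF (CTTTGAT or ATCAAAG) and forkhead (TGTTTAC or GTAAACA) matches in capitals. The first was open in all cultures and in no acutely isolated library, between Foxq1 and Foxf2, and held 3 AP-1 matches. The second, past Foxc1, and the third, an acute-only region in a Foxp1 intron (4.35 and 3.15 in acutely isolated ECs), each held 1 TCF/LEF match. The fourth, in a Foxo1 intron, was likewise open in cultures (4.07 to 11.5 in WT) and held 1 forkhead match.
Between Foxq1 and Foxf2, chr13:31567714-31568013: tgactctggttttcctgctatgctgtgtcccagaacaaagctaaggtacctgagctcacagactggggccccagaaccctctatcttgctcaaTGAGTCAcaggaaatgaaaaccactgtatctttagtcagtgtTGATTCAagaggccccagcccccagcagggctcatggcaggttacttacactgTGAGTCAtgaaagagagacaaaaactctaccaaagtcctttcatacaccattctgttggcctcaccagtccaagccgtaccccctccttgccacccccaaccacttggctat
Past Foxc1, chr13:31830461-31830760: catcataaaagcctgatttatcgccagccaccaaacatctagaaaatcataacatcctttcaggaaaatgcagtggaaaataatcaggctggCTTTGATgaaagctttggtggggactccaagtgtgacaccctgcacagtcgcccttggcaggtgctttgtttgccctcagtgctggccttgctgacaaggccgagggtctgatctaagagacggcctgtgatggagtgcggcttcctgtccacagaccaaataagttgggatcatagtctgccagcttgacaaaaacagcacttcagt
Foxp1 intron, chr6:99092991-99093290: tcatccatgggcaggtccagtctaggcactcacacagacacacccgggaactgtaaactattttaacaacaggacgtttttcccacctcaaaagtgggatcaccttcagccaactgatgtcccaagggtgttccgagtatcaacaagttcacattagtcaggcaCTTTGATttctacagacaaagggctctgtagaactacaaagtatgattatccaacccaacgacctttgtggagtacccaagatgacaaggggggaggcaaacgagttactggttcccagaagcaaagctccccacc
Foxo1 intron, chr3:52330432-52330731: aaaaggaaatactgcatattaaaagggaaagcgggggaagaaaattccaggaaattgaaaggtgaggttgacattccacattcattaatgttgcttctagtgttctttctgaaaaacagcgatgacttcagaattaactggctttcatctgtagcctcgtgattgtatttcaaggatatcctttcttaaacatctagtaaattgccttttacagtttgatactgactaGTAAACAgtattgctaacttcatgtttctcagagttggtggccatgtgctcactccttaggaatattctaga

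An AP-1 match stood in 13 of the 26 culture-only windows at the 7 genes (50.0%), beside 52.6% of all 10207 culture-only windows and 27.6% of all windows. A TCF/LEF match stood in 1 of the 4 acute-only windows, beside 15.1% of all acute-only windows and 4.79% of all windows. It also stood in 2 of the 26 culture-only windows (7.69%, beside 3.7%) and 3 of the 27 shared windows (11.1%, beside 2.84%). A forkhead match stood in 16 of the 253 windows at these genes (6.32%, beside 5.47%). Each of the shares at these genes is given beside its background and was not tested.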

How the data were processed

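RNA was sequenced from sorted and cultured brain ECs (14 libraries used) and open chromatin by ATAC-seq (10 used). The samples labeled as sorted cerebrum were not analysed on their own here, though by the paper cerebrum data are part of its adult brain EC data. The members, gene lists and tests were chosen with earlier results of these data known.

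The authors quantified transcripts with Salmon 0.14.0 on the GENCODE M21 mouse transcriptome and deposited estimated counts and TPM per transcript. Salmon inferred the library type automatically and gave no weight to mappings against it, and the inferred type is not given in the sources used here. Per the labels, ATAC-seq reads were aligned with HISAT2 2.1.0 to GRCm38 (mm10) and peaks called per library with MACS2 2.1.2. In the deposited peak lists each peak has a fold enrichment, a ratio over local background, and a -log10 q value, and the deposited score column, a rescaled q, was not used.

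Here, both values were summed per gene symbol and counts rounded to whole numbers. Genes with a protein-coding transcript that passed edgeR's filter on low counts were tested with edgeR 4.0.16 (TMM, quasi-likelihood test, R 4.3.3) on the libraries of each comparison, with Benjamini-Hochberg adjustment over all genes tested. This test was tried on simulated data. The study's own test, EBSeq, was not used. The named genes were the 7 members, other forkhead genes called or with a group mean of at least 5 TPM, up to 4 called FOXO regulators and targets per comparison by size of change, and the 3 nearest patterns per member. Peaks past a fold enrichment of 2 and a -log10 q of 2 were merged across libraries, and carry no counts, so no test was made on them. Alternatives were other normalizations, DESeq2 1.42.0, no count filter, no TPM minimum, a transcript length offset, all genes, all libraries in one fit, a replicate block, leaving out each replicate, summed wells, single isolation methods, read lengths, and other peak limits. RefSeq starts and Foxp1 without transcripts under 500 bases were added after seeing the data.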

Additional observations from a re-analysis of the deposited data

Results flagged for a closer look

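The change between stabilized and WT cultures differed between the isolation methods for 5 of the 7 genes, by an interaction test in edgeR over 12922 genes (2 against 2 wells within each method). The log2 difference, method A minus method B, was 1.91 for Foxo1 (adjusted p = 0.000218), 0.71 for Foxp1 (adjusted p = 0.000708), 0.57 for Foxo3 (adjusted p = 0.00183), 0.35 for Foxf2 (adjusted p = 0.0259) and -0.57 for Foxq1 (adjusted p = 0.0225). These differences are on normalized counts. On TPM, where the median over 9760 genes was 0.82, the difference for Foxq1 was 0.24 and that for Foxf2 1.02. The same test was passed by 51.7% of all genes. Within each method the WT wells were 1 culture experiment and the stabilized wells another, and the WT genotype differed between methods. The method of the WT wells follows the paper's methods section, from which a figure legend of the paper differs. For Foxf2 the difference was not past the threshold in any of 3 alternatives, and for Foxq1 it was not with DESeq2. No single library stood out within its group among 20 sets of 4 to 10 values, by the gap between 1 value and the next. That measure misses 2 wells of an experiment that lie apart together, as the long-read RNA-seq wells did.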

How the results depend on the processing

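Of 59 results examined, those on all genes moved most with the TPM minimum and the libraries used. Between WT cultures and acutely isolated ECs, 3161 genes were called higher and 2827 lower without a TPM minimum, and 835 lower with wells summed. With the transcript length offset 2 of the 7 forkhead genes were called. Foxo3 turned to 0.18 with the offset and 0.30 with 36-cycle cultures, and ranged from -0.58 to 0.0077 when 1 replicate was left out. Between ECs and GFP-negative cells, 658 genes were called higher with the offset and 2978 lower without the TPM minimum. The count of higher genes ranged from 662 to 1665 when 1 replicate was left out, lowest without GFP-negative replicate 2 and 669 without replicate 1. With library size alone the split was 930 higher to 1420 lower, beside 1253 to 1142 with TMM, and the median of all genes was -0.44 beside -0.06 (0.30 beside 0.10 for WT cultures and 0.16 beside 0.04 for stabilized cultures against acutely isolated ECs).

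Between stabilized and WT cultures, the calls were 15 higher and 3 lower with DESeq2, 691 and 118 with method A only (1 of the 7 genes, Foxo1), 66 and 10 with the method as a covariate and 1 higher with method B only. Directions turned for Foxf2 at 0.0059 (no count filter), 0.0047 (all 14 libraries), 0.35 (method A), 0.17 (36-cycle cultures) and 0.16 (method as covariate). They turned for Foxc1 at -0.030 (library size), -0.060 (length offset), -0.29 (method A), -0.28 (36-cycle cultures) and -0.27 (covariate), for Foxo1 at -0.023 (library size) and -0.32 (method B), for Foxo3 at -0.046 (36-cycle cultures) and -0.00055 (covariate) and for Foxp1 at -0.14 (length offset). Leaving out 1 replicate gave ranges of -0.11 to 0.19 for Foxc1, -0.12 to 0.048 for Foxf2 and -0.17 to 0.28 for Foxo1. None of these members was called in the comparison itself, and the cause was not tested. Stabilized cultures against acutely isolated ECs gave 3 of the 7 genes with the length offset, and 3408 genes higher and 3210 lower without the TPM minimum. By DESeq2, 3 of the 7 passed the interaction test. Peak regions open in acutely isolated ECs only numbered 7 with a fold enrichment over 4 and 8 with a 50% overlap, those open in cultures only 14 and shared regions 11 with that overlap.

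Replicate numbers were not treated as pairs in the main tests. Deviations of same-numbered libraries correlated at -0.04 and 0.01 (WT cultures and acutely isolated ECs), 0.098 and 0.098 (ECs and GFP-negative cells), -0.02 and -0.01 (stabilized cultures and acutely isolated ECs) and 0.53, 0.55, 0.02 and 0.098 (stabilized and WT cultures). The values of 0.53 and 0.55 belong to replicates 1 and 2, which share isolation method A. With 2 libraries in each group, the values for ECs and GFP-negative cells are equal by construction and cannot settle whether sorts were paired. With the replicate block, 143 genes were called higher and 44 lower between stabilized and WT cultures, with Foxq1 at -0.10. Between WT cultures and acutely isolated ECs 6 of the 7 were called, with Foxf1 at -1.26 and Foxo1 at -3.09 added. Depth limits the low genes, such as Foxq1 with 79 to 364 reads per WT culture.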

Other observations

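Long noncoding genes beside the forkhead genes had their own levels, which were looked at after the values of Foxf1 and Foxq1 were seen. Fendrr, transcribed away from Foxf1, was at 1.96 and 12.9 TPM in acutely isolated ECs (399 and 1262 reads). It had 2 and 0 reads in GFP-negative cells, 5 to 17 in WT cultures and 10 to 27 in stabilized cultures. Foxf1 itself was not called between WT cultures and acutely isolated ECs. The lincRNA 1700018A04Rik, between Foxq1 and Foxf2, had 408 and 249 reads in acutely isolated ECs, 13 to 40 in WT cultures and 29 to 79 in stabilized cultures. In TPM it was at 2.65 and 2.25 in acutely isolated ECs, and its WT cultures reached 2.13 in a long-read well.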
